A study of Homo sapiens with 10 samples.

Results

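Serine and selenocysteine tRNAs made up 31 of the 631 tRNA rows tabulated for each of 10 iCLIP libraries, with 28 serine rows and 3 selenocysteine rows. They were taken by name alone (tRNA-Ser and tRNA-SeC, every anticodon and copy), without names that carry an nm or nmt prefix. In iCLIP, ultraviolet light joins RNA to a protein while cells are alive, and the pair is pulled down and the RNA sequenced. Here it was PUS7, which isomerises uridine to pseudouridine in tRNA and mRNA. In every library the cells were PUS7 knockouts (PUS7KO). The FLAG-PUS7 groups (PUS7KO+FlagPUS7) also carried FLAG-tagged PUS7, and the knockout groups, which had no tagged protein, went through the same anti-FLAG M2 pull-down as a mock control. HEK 293T, a transformed embryonic kidney line at passages 20 to 25, gave 3 FLAG-PUS7 and 3 knockout libraries. H9, a human embryonic stem cell line at passages 40 to 45, gave 2 and 2. How the tagged protein was expressed and whether a knockout line came from 1 clone are not given in the sources used here. Nor is it stated whether libraries of a group came from separate cultures, so that a p-value here reflects only how far these samples spread, which may be technical.

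The deposited tRNA tables give level numbers, not read counts. Each row was therefore read only as detected, meaning 1 read or more, or as not detected. Rows fall into 4 main width classes, read as the width of the text that the level numbers replaced, an inference from the tables that no header states. Amounts, fold changes and sequencing depth are unknown. Over all 631 rows, FLAG-PUS7 libraries detected 458 to 479 and knockout libraries 0 to 232. The first H9 knockout table served to read the other tables, so its 0 rows are part of that reading, and the differences between families are also given without it. In a pull-down from bulk cells, fewer cells, less RNA recovered and less contact with the protein cannot be told apart.

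Serine tRNAs carry serine to its UC-box codons, read by the anticodons AGA, CGA and TGA, and to AGC and AGU, read by GCT. The selenocysteine tRNA is first charged with serine by the same seryl-tRNA synthetase; the serine is then converted on the tRNA to selenocysteine, which is inserted at a UGA codon in selenoprotein mRNAs. Both kinds of tRNA have a long variable arm, by which the synthetase recognises them.

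Of the 31 rows, 28 matched a RefSeq tRNA gene on GRCh38.p14 and 1, TRS-ACT1-1, matched a pseudogene. The rows Ser-AGA-6-1 and SeC-TCA-3-1 matched no symbol. Most of the matched genes, 24 of 29, are 82 bases long. The exceptions are TRS-AGA5-1 with 72 bases, TRS-ACT1-1 with 74, TRS-GCT6-1 and TRU-TCA2-1 with 84 each, and TRU-TCA1-1 with 87. Chromosome 6 holds 18 of the 29, and the other 11 lie on 9 chromosomes.

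FLAG-PUS7 libraries detected nearly every serine and selenocysteine tRNA row in both lines, and the mock pull-downs held many of the same rows. Rows of RefSeq tRNA genes in general were detected nearly as fully with FLAG-PUS7. The 3 FLAG-PUS7 libraries of 293T each detected 29 of the 31 rows. The 293T knockout libraries detected 24, 14 and 14. With FLAG-PUS7, H9 gave 29 and 28 rows, and its knockout gave 0 and 21. Every FLAG-PUS7 library thus lay above every knockout library of its line. In 293T, 93.5% of the rows were detected in each FLAG-PUS7 library, against 55.9% ± 18.6 (SD, n = 3) in the knockout. The mean difference over both lines was 47.8 percentage points. It was 30.9 points with the first H9 knockout left out. Of the 600 other rows, 293T detected 73.3% ± 1.68 with FLAG-PUS7 and 25.1% ± 8.29 in the knockout (SD, n = 3 each). Counting only the 28 serine and selenocysteine rows with a RefSeq tRNA gene, the shares were 100% and 61.9% ± 20.6 (SD, n = 3 each), beside 97.4% ± 0.374 and 39.1% ± 13.1 (SD, n = 3 each) for all 408 such rows. Leucine tRNAs, which also have a long variable arm, were detected in 293T at 78.9% ± 1.41 of 41 rows with FLAG-PUS7 and at 48.8% ± 15.99 in the knockout (SD, n = 3 each).

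**Figure D1:**
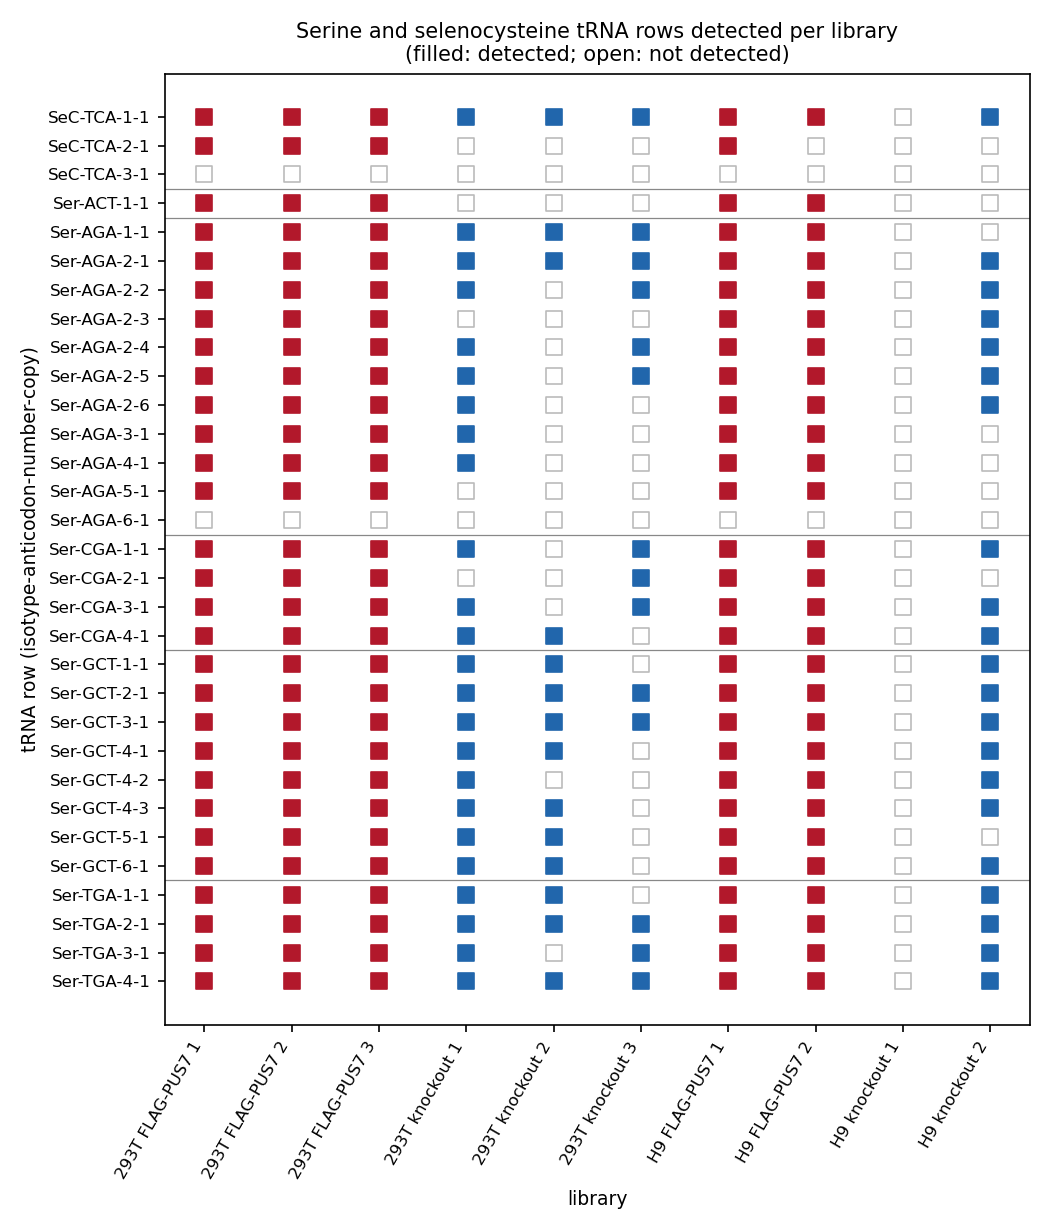
Detection of each of the 31 serine and selenocysteine tRNA rows (vertical axis) in each of the 10 libraries (horizontal axis); filled squares are detected rows, red for FLAG-PUS7 and blue for knockout, and open squares are rows not detected. The FLAG-PUS7 columns are filled for 28 or 29 rows each, the first H9 knockout column is empty, and the other knockout columns hold 14 to 24 rows.

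By anticodon, 4 of the 6 families rose with FLAG-PUS7 in the share of rows detected: Ser-ACT, Ser-AGA, Ser-CGA and SeC-TCA. Ser-GCT and Ser-TGA did not pass the exact permutation test. Over all anticodon families with a row detected, 45 of 57 passed, which is 78.9%. The share of 4 in 6 was therefore near the background. The test permuted the genotype within lines (120 assignments, two-sided, Benjamini-Hochberg over 57 families), and the smallest p it can give is 0.0167. Within 293T alone it cannot go below 0.1 and within H9 alone below 0.333. The median difference of the 6 families was 47.4 points, beside 52.5 points for all 57. These medians were 29.2 and 41.7 points with the first H9 knockout left out. That library, at 0% through the reading itself, was permuted with the others in the test above. Without it, 3 of the 6 families and 43 of the 57 passed. Under another reading of the tables, in which the most frequent level of each width class stands for no reads, 0 of the 57 families passed and the 293T libraries held 19, 26 and 18 of the 31 rows with FLAG-PUS7 and 15, 14 and 14 in the knockout.

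Ser-ACT has a single row, TRS-ACT1-1 (chromosome 6, 27293892 to 27293965), which RefSeq lists as a tRNA pseudogene. All 5 FLAG-PUS7 libraries held it and none of the 5 knockout libraries did, which is 100 points (adjusted p = 0.0221 over families, exact permutation). The groups did not overlap, and leaving out any 1 library kept the call. Tested among the 513 rows detected in any library, the same row did not pass (exact permutation, adjusted p = 0.0668).

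Ser-AGA, the largest family with 11 rows, reads some of the UC-box codons through an adenosine that is edited to inosine. It was detected at 90.9% in every FLAG-PUS7 library of both lines. The 293T knockout libraries held 72.7%, 18.2% and 45.5% of its rows, and the H9 knockout libraries 0% and 54.5%. The knockout libraries thus ranged widely, and all lay below the FLAG-PUS7 libraries. The difference was 54.5 points (exact permutation test, adjusted p = 0.0221), and 40.9 points with the first H9 knockout left out. Leaving out the first or the second H9 FLAG-PUS7 library ended the call, at adjusted p = 0.0576 and 0.0594 by the exact permutation test.

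All 4 rows of Ser-CGA, another UC-box reader, were present in every FLAG-PUS7 library. The 293T knockout libraries held 75%, 25% and 75% of its rows, and those of H9 0% and 75%. The groups did not overlap, and the difference was 52.1 points (exact permutation test, adjusted p = 0.0221). With the first H9 knockout left out, the value was 33.3 points. Leaving out any 1 of the 5 FLAG-PUS7 libraries ended the call, with adjusted p from 0.062 to 0.181 by the exact permutation test.

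Ser-GCT, the reader of AGC and AGU, had all its 8 rows in every FLAG-PUS7 library. The 293T knockout libraries held 100%, 87.5% and 25% of them, and the H9 knockout libraries 0% and 87.5%. The first 293T knockout library equalled the FLAG-PUS7 libraries, so that the groups overlapped. The difference was 42.7 points, which missed the threshold (adjusted p = 0.0776, exact permutation). Leaving that library out gave 50 points, past the threshold (adjusted p = 0.0211, exact permutation). Leaving out the first H9 knockout instead gave 20.8 points (adjusted p = 0.0792, exact permutation), and leaving out the second gave 64.6 points (adjusted p = 0.0731, exact permutation).

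Ser-TGA, a UC-box reader with 4 rows, was also complete in all 5 FLAG-PUS7 libraries. The 293T knockout libraries held 100%, 75% and 75% of its rows and the H9 knockout libraries 0% and 100%. A knockout library of each line matched the FLAG-PUS7 libraries. The difference was 33.3 points (exact permutation test, adjusted p = 0.211), and 8.33 points with the first H9 knockout left out or 58.3 with the second. Of the 57 families, 43 had every FLAG-PUS7 library above every knockout library of its line, which is 75.4%; among serine and selenocysteine these were Ser-ACT, Ser-AGA and Ser-CGA, 3 of 6.

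The 3 rows of SeC-TCA behaved in 3 ways. TRU-TCA1-1, the selenocysteine tRNA gene on chromosome 19 (45478601 to 45478687), was found in every library except the first H9 knockout. TRU-TCA2-1 on chromosome 22 (44150657 to 44150740) was detected in all 3 293T FLAG-PUS7 libraries, in the first of H9 and in no knockout library. SeC-TCA-3-1 was detected in no library. The family rose by 33.3 points (adjusted p = 0.0422, exact permutation), and TRU-TCA2-1 was the row that set 293T FLAG-PUS7 apart from its knockout. The second H9 FLAG-PUS7 library equalled the second H9 knockout library at 33.3%. The call ended without the first H9 FLAG-PUS7 library, the second one or the first H9 knockout library, at 25, 41.7 and 25 points and adjusted p = 0.0814, 0.0594 and 0.062 by the exact permutation test.

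**Figure D2:**
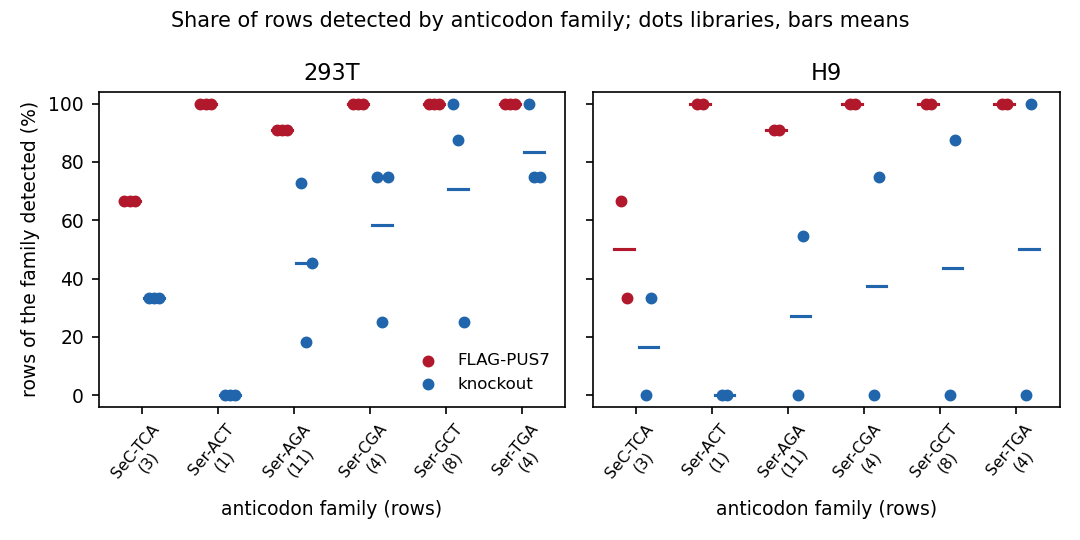
Share of rows detected (vertical axis, percent) in the 6 anticodon families (horizontal axis, number of rows in parentheses) for 293T on the left and H9 on the right; each dot is 1 library, red for FLAG-PUS7 and blue for knockout, and the short bars are group means. Ser-ACT is at 100% with FLAG-PUS7 and 0% in the knockout, while Ser-GCT and Ser-TGA each have a 293T knockout library at 100%.

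Copies of one anticodon differed in how many mock pull-downs held them. Of the 28 rows that every FLAG-PUS7 library detected, the knockout libraries holding them numbered 0 for 2 rows, 1 for 4, 2 for 3, 3 for 13 and 4 for 6. For all rows that every FLAG-PUS7 library detected, 425 in number, 128 were free of knockout detection (30.1%) and 71 had it in 4 libraries (16.7%). The corresponding shares of the serine and selenocysteine rows were 7.14% and 21.4%. The median number of knockout libraries was 3 for these rows and 2 for all 425. Of the 28 rows, the 2 held by no knockout library were TRS-ACT1-1 and TRS-AGA5-1 (chromosome 7, 149608376 to 149608447), which are also the shortest of the matched genes. The 6 held by 4 knockout libraries were TRU-TCA1-1, TRS-AGA2-1, TRS-GCT2-1, TRS-GCT3-1, TRS-TGA2-1 and TRS-TGA4-1.

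Among the AGA rows, TRS-AGA1-1 was in all 3 293T knockout libraries and in no H9 knockout library. TRS-AGA3-1 and TRS-AGA4-1 were in the first 293T knockout library alone. TRS-AGA2-3 was in the second H9 knockout library alone, and TRS-AGA2-6 was there and in the first of 293T. TRS-AGA2-2, TRS-AGA2-4 and TRS-AGA2-5 shared 1 pattern: all 3 were in the first of 293T, the third of 293T and the second of H9. Among the CGA rows, TRS-CGA2-1 was in the third 293T knockout library alone, whereas TRS-CGA1-1, TRS-CGA3-1 and TRS-CGA4-1 were each in 2 of the 293T knockout libraries and in the second of H9. Among the GCT rows, the second H9 knockout library lacked TRS-GCT5-1, and the third 293T knockout library held TRS-GCT2-1 and TRS-GCT3-1 only. The second 293T knockout library lacked TRS-GCT4-2, and TRS-GCT1-1, TRS-GCT4-1, TRS-GCT4-3 and TRS-GCT6-1 were missing from the third of 293T and the first of H9 only. On chromosome 6, the knockout libraries of 293T held 15, 9 and 10 of 18 matched rows and those of H9 0 and 12. On the other chromosomes they held 9, 5 and 4 of 11 rows in 293T and 0 and 9 in H9. Of the TGA rows, TRS-TGA3-1 was missing from the second 293T knockout library and TRS-TGA1-1 from the third.

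Row by row, 29 of the 31 rows were detected somewhere and could be tested. Adjusted over 513 rows, 0 of the 29 passed, and 0 of the whole table (0%), by the exact permutation test; the lowest adjusted p of any row was 0.0668. At an unadjusted exact permutation p under 0.05 there were 2 of 29 serine and selenocysteine rows, TRS-ACT1-1 and TRS-AGA5-1, beside 25% of all rows (128 of 513). Both had an exact permutation p of 0.0167, the lowest that 120 assignments allow. The median difference was 41.7 points over the 29 rows and 66.7 points over the 513.

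Among rows other than serine and selenocysteine, the share that the mock pull-downs held rose with the text width class. The serine and selenocysteine rows, few per class, did not rise from class to class in every library. Classes run from 1 for the narrowest text to 4 for the widest. Serine and selenocysteine had 5 rows in class 1, 3 in class 2, 10 in class 3 and 13 in class 4. Of the other rows in class 1, 293T and H9 knockout libraries held at most 1.23%, and of those in class 4 between 65.8% and 95.9%, the empty H9 table aside. Had the 31 rows been held at the rates of the other rows of their class, the 293T knockout libraries would have held 20.2, 12.6 and 13.4 rows, beside the 24, 14 and 14 observed, and the second H9 knockout library 19.1 beside 21. With FLAG-PUS7 the same rates would give 27.9, 27.7 and 27.5 rows in 293T, beside 29 observed in each. In H9 they would give 27.9 and 27.8, beside 29 and 28. Near-complete detection with FLAG-PUS7 was thus shared by the other rows of classes 2 to 4, of which 97.6% to 100% were detected. In class 1, FLAG-PUS7 libraries detected 30.5% to 39.1% of the other rows. Of the 5 serine and selenocysteine rows in class 1 they detected 60%, or 40% in the second H9 library. In class 2, with 3 rows, the observed shares were 66.7%, 33.3% and 66.7% in 293T and 0% in the second H9 library, beside 17.3%, 14.2%, 7.09% and 33.9% of the other rows. In class 3 they were 90%, 40% and 60% in 293T and 100% in the second H9 library, beside 71.8%, 35.9%, 33.3% and 64.7% of the other rows. In class 4 they were 100%, 69.2%, 46.2% and 84.6%, beside 95.9%, 65.8%, 75.3% and 89.0%. The part of the width class in the differences between families was not tested. The 2 rows held by every FLAG-PUS7 library and by no knockout library are in class 1. All 8 GCT rows are in class 4.

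**Figure D3:**
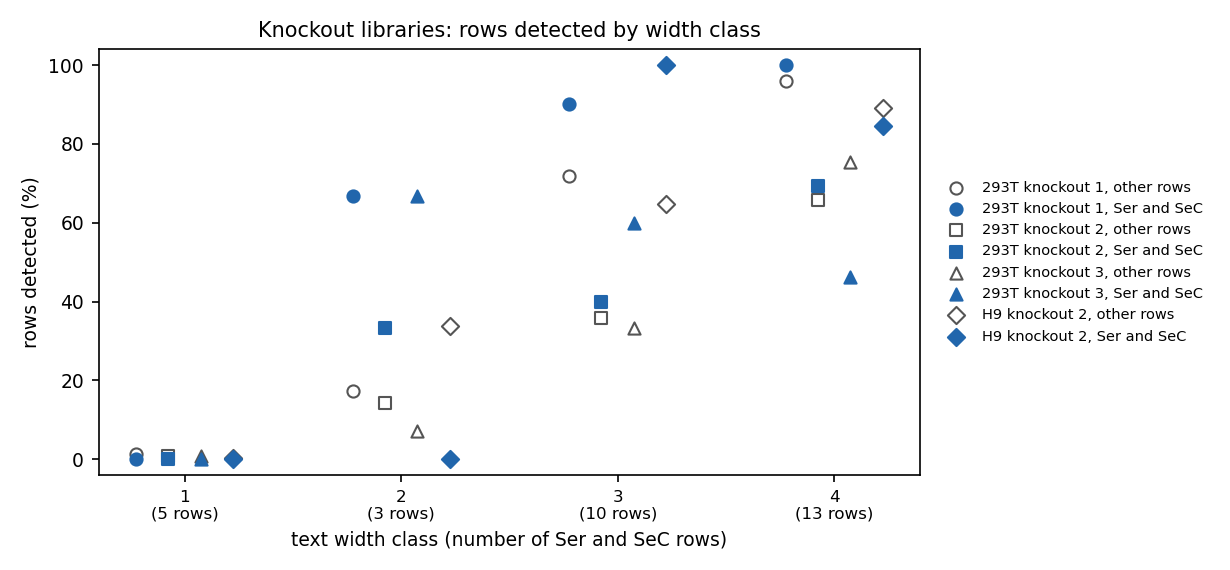
Share of rows detected (vertical axis, percent) in each knockout library except the empty H9 table, by text width class (horizontal axis, with the number of serine and selenocysteine rows); filled blue symbols are serine and selenocysteine rows, open symbols all other rows, and each shape is 1 library. The other rows rise from at most 1.23% in class 1 to 65.8% or more in class 4. The serine and selenocysteine rows are at 0% in class 1 and at 46.2% or more in class 4, without a steady rise. In the third 293T knockout library they are at 66.7%, 60% and 46.2% in classes 2, 3 and 4.

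Copies that share a number in their name, such as Ser-AGA-2-1 to 2-6, are genes for the same mature tRNA sequence. Where level numbers sort text, equal levels mean equal text, but close levels need not mean close values. The 6 Ser-AGA-2 copies, spread over chromosomes 6, 8 and 17, spanned levels 212 to 242 of 353 in the first 293T FLAG-PUS7 library. In the first H9 FLAG-PUS7 library they spanned 307 to 314 of 412. The 3 Ser-GCT-4 copies, on chromosomes 6, 15 and 17, spanned 40 to 44 of 353 and 48 to 51 of 412 in the same libraries. As a share of all levels of a library, the median span over the 5 FLAG-PUS7 libraries was 4.48% for Ser-AGA-2 and 1.19% for Ser-GCT-4. The median over 32 such sets of at least 3 copies was 4.62%, and Ser-GCT-4 had the narrowest. A span can only widen as copies are added, and the sets were not matched for size. Ser-GCT-4 had 3 copies, the fewest allowed, and Asp-GTC-2 had 11. Only sets within 1 width class entered, and only libraries that detected every copy. A span of levels measures no difference in reads. In the third 293T knockout library, 4 of the 6 Ser-AGA-2 copies were detected, and all 4 had the same level. The first 293T knockout library detected 5 of them, 4 at the same level. In the second H9 knockout library all 6 were detected, with at most 2 at the same level, and the 3 Ser-GCT-4 copies had 3 different levels. No source used here says how reads were shared out among such copies. Each copy counted as a row of its own in the shares, tallies and row tests, without merging by sequence. Copies may therefore not be independent, and the tests permuted libraries, not copies.

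The same contrast in 2 lines gave no family whose difference between H9 and 293T passed. The values, H9 minus 293T, were 0 points for Ser-ACT and SeC-TCA, 18.2 for Ser-AGA, 20.8 for Ser-CGA, 27.1 for Ser-GCT and 33.3 for Ser-TGA. Their direction rested on the empty H9 table: with it left out they were 0 points for Ser-ACT, -9.09 for Ser-AGA and -16.7 for SeC-TCA, Ser-CGA, Ser-GCT and Ser-TGA. With all libraries, by an exact two-sided permutation of the line labels within genotype (100 assignments), the unadjusted p was 0.5 to 1 and the adjusted p was 1 for each of the 6. Over all 57 families 0 passed (0%), and 0 had an unadjusted p under 0.05 by the same exact permutation test. Among the rows, TRU-TCA2-1 was the only one of the 29 whose detection differed among FLAG-PUS7 libraries, missing from the second of H9.

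Peak lists, deposited for the 5 FLAG-PUS7 libraries, added a signal for RNA at genome positions in bins of 200 bases. A peak overlapped 10 of the 28 serine and selenocysteine tRNA genes by at least 1 base in at least 1 list, and 0 of these were selenocysteine genes. Overlap was by position alone, since the gene table used for the tRNA genes holds no strand. The 293T lists had a peak at 5, 2 and 1 of the genes, and the H9 lists at 10 and 4. As shares of the 28 genes these were 17.9%, 7.14%, 3.57%, 35.7% and 14.3%, beside 11.3%, 9.26%, 4.06%, 25.7% and 12.4% of all 443 RefSeq tRNA genes. The first H9 list was the longest, with 1605 peaks against 39 to 199 in the others, and 4 of the 10 genes had a peak there only. For genes with a peak in at least 1 list or in 1 list only, no share over all 443 genes is given here. Serine genes carried 2.98%, 2.93% and 1.27% of the signal summed over peaks at tRNA genes in 293T, and 4.98% and 1.81% in H9. These sums come from 5, 2, 1, 10 and 4 peaks. Signals are the authors' own, no source used here states a scaling for depth, and no peak list of a knockout library was used here, so the values are set beside each other and not tested.

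TRS-GCT6-1 (chromosome 6, 26305490 to 26305573) was the serine gene with a peak in all 5 lists. The peak filled the bin from 26305401 to 26305600 on the minus strand and held the whole gene. The 293T lists gave it signals of 60, 99 and 29, and the H9 lists 113 and 28. The list medians were 20, 28 and 40 in 293T and 3 and 11 in H9, so that the peak lay above the median of every list but the third of 293T. It ranked 22nd of 120, 17th of 85 and 27th of 39 in 293T, and 15th of 1605 and 35th of 199 in H9. Its row in the tRNA tables was detected with FLAG-PUS7 every time and in 3 knockout libraries.

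TRS-AGA2-2 (chromosome 6, 27478812 to 27478893) had a plus-strand peak over the whole gene in 4 lists, at 13 and 17 in the first and second of 293T and 9.5 and 8 in H9. TRS-TGA2-1 (chromosome 6, 27545689 to 27545770) had 10 in the first 293T list and 13.5 and 8 in H9. These signals were below the list median except in the first H9 list. TRS-AGA2-3, a copy of the same tRNA as TRS-AGA2-2, had 6 in both H9 lists. TRS-AGA1-1 had 9 and 6 in the first list of each line, 293T and H9, from a bin that held 26 of its 82 bases. TRS-GCT3-1 shared 1 base with its peak, in a bin that also holds B4GAT1-DT, at 12 in 293T and 5 in H9, each the first list of its line. With the whole gene required inside the peak, 7 genes remained in the first H9 list, 4 in the second and 3, 2 and 1 in 293T. No such count over all 443 RefSeq tRNA genes is given here. TRS-AGA2-1 itself had no peak. A peak of all 5 lists starts 531 bases past the end of TRS-AGA2-1 and overlaps 12 bases of the arginine gene TRR-ACG1-1. Its signals were 40, 46 and 29 in 293T and 50 and 19 in H9.

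**Figure D4:**
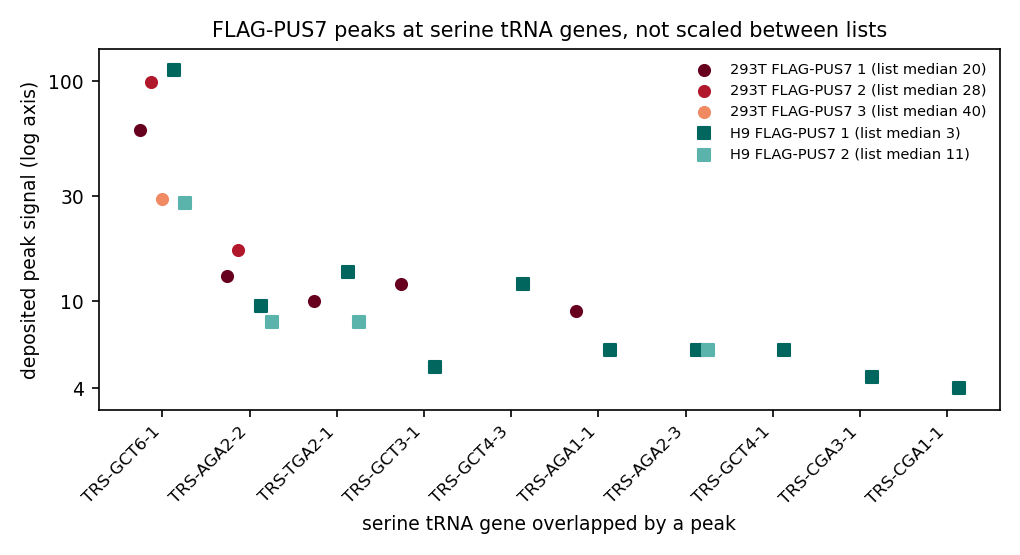
Deposited peak signal (vertical axis, log scale) at the 10 serine tRNA genes overlapped by a peak (horizontal axis, ordered by highest signal); circles are 293T and squares H9 FLAG-PUS7 libraries, coloured by library, with list medians in the legend. TRS-GCT6-1 has 28 to 113 in all 5 lists, and the other 9 genes have 17 or less in 1 to 4 lists.

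At TRS-GCT4-3 (chromosome 17, 8186866 to 8186947) the first H9 list had a plus-strand peak from 8186801 to 8187000 with a signal of 12. The same bin holds the microRNA gene MIR4521, whose RefSeq hairpin (GRCh38.p14, chr17:8186945-8187004, plus strand) shares its first 3 bases with the end of the annotated tRNA gene. The mature microRNA starts at the base just after that end. The sequences are shown because the bin cannot tell the tRNA from what follows it. Capitals mark the 3 shared bases in the hairpin and the seed, bases 2 to 8, in the mature form.
MIR4521 hairpin: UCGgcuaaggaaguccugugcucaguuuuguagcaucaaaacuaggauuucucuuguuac
hsa-miR-4521: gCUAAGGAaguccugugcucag

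The list for making, modifying and using serine and selenocysteine tRNA had 25 symbols, and 24 of them are in the RefSeq table. By position, a peak in any list overlapped 2 of these genes, and 1 of them, SEPHS1, on its own strand. Each had a peak in the first H9 list, the longest with 1605 peaks. The share of all RefSeq genes overlapped by a peak is not given here, so the count has no background beside it. SEPHS1, a paralogue of the selenophosphate synthetase, had a peak of 3 in the first H9 list, which is that list's median. At LARP7, which encodes a La-related RNA-binding protein on the plus strand, the peaks were all on the minus strand and so antisense to the gene, at 4.33 and 8.8 in the first H9 list and 6 in the second. The peaks of 8.8 and 6 held microRNA genes of the MIR302 cluster, which lie on the minus strand and are known from pluripotent stem cells. The 293T lists had no peak in any gene of the list, including SARS1 and SEPSECS, which charge and convert the tRNA. Other markers of the cell lines were not analysed here.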

How the data were processed

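The tRNA tables that the authors deposited hold a score per row, a level number that ranks the distinct texts of a column: every whole number from 1 to the maximum occurs without a gap. The submitters' processing notes list Bowtie, SAMtools, bedtools and hg38 with no version. The counting and the peak caller are not given in the sources used here. According to the labels' protocols, cells were irradiated at 254 nm and 200 mJ/cm2 and pulled down for 2 h at 4 °C. The H9 knockout table with 6 levels gave the text width class of each row. In each library the lowest ascending run of classes was read as no reads and anything higher as detected. No amount or depth can be recovered. The peak signal and p-value per peak are as deposited, from lists without headers. RefSeq positions are 1-based, and peak starts were raised by 1. Families are isotype and anticodon. Tests were exact two-sided permutations over libraries with Benjamini-Hochberg adjustment at 0.05, in Python 3.11.15 with numpy 2.4.6. The code was checked on simulated data. Those data were built with the same level coding, so the check cannot show that the deposited tables were read correctly. Copies were named where their detection differed from others of their anticodon or a peak lay at them. The tRNA sequences that this rule would show were not used here. Members, lists and tests were chosen with earlier results of these data known.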

Additional observations from a re-analysis of the deposited data

How the results depend on the processing

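Each of the 6 serine and selenocysteine families kept the direction of its FLAG-PUS7 minus knockout difference under every alternative run. For most of them this was largely fixed in advance. Ser-ACT, Ser-CGA, Ser-GCT and Ser-TGA stood at 100% in every FLAG-PUS7 library. Ser-AGA stood at 90.9%, its remaining row being detected in no library. Leaving out or reweighting libraries could not turn these differences. The H9 minus 293T difference turned without the first H9 knockout library in 4 families, and with 1 library left out it ranged from -9.09 to 45.5 points for Ser-AGA, -16.7 to 58.3 for Ser-CGA, -16.7 to 70.8 for Ser-GCT and -16.7 to 83.3 for Ser-TGA. The count of families that passed, 45 of 57, was 23 to 49 when a library was left out, with 23 without either H9 FLAG-PUS7 library. It was 0 with the 293T libraries alone and 0 when the most frequent level of each class was read as no reads (lowest adjusted p = 0.05, exact permutation test); that reading leaves 18 to 29 serine and selenocysteine rows per FLAG-PUS7 library and 0 to 21 per knockout. With the replicate number as a block (32 assignments), 0 families and 0 rows passed, because the smallest exact permutation p is then 0.0625. Deviations of same-numbered libraries correlated at -0.0245 to 0.0369 in 293T, and those of differently numbered libraries at -0.0430 to 0.0496. In H9, with 2 libraries per group, deviations mirror each other, so same-numbered and other pairs differ only in sign (0.0341 and -0.0341). Whether the numbers pair the libraries cannot be settled from these values. The mean difference of the 31 rows ranged from 30.9 to 64.8 points with 1 library left out. Serine genes with a peak were 6 to 10 with 1 list left out, with 6 without the first H9 list. Weighting every library equally gave 45 families, and rows matched to RefSeq tRNA genes gave 35 of 49. Detection without amounts and unknown depth limit every value here.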
